A study of Mus musculus with 6 samples.

Results

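The genes described here are 10 that mark alternative activation of macrophages or encode their scavenger and lectin receptors, namely Stab1, Msr1, Cd163, Mrc1, Clec10a, Mgl2, Retnla, Chil3, Tgm2 and Il4ra. They were chosen by name from the 38087 genes of the series. Symbols matched 9 of them directly, and Chil3 was found under its older symbol, Chi3l3, through the reference gene tables. Poly-A RNA was sequenced from cultures of bone marrow-derived macrophages of male C57BL/6J mice, 8 to 10 weeks old by the protocol and 2 to 4 months old by the sample labels. In the RvD1 group, 3 cultures received 10 nM resolvin D1 for 6 h, and the untreated group had 3 cultures that did not. All cultures were differentiated for 7 days in 10 ng/ml of the growth factor M-CSF and then kept without it for 24 h. The labels name no vehicle for the untreated cultures and no interleukin-4 (IL-4) or interleukin-13 (IL-13) in the medium, and give no source mouse for any culture, so p-values measure only the spread between these libraries, which may be technical.

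Alternative activation is the state that macrophages take on when IL-4 or IL-13 binds a receptor built around the chain IL-4Rα and activates the transcription factor STAT6. Mouse cells in that state secrete the resistin-like protein of Retnla and the chitinase-like protein of Chil3, and carry the mannose receptor and the galactose-binding lectins on their surface. Scavenger receptors take up modified lipoproteins, haemoglobin complexes, dying cells and spent matrix, and several of them are made by resting tissue macrophages as well. Resolvin D1, a derivative of docosahexaenoic acid, is one of the lipid mediators that end inflammation, and ALX/FPR2, the subject of the series, is its receptor on myeloid cells. The comparison asks which transcripts differ 6 h after the mediator is given.

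None of the 10 genes passed the test over all genes. The limma fit, with p-values adjusted by the Benjamini-Hochberg method over 18899 genes, called 0 of the 10 higher and 0 lower. Of all tested genes 1.12% were called, 0.561% higher and 0.556% lower. Before adjustment, 3 of the 10 had a p under 0.05, as did 19.9% of all tested genes. The same 3 genes were those whose groups did not overlap: Stab1 and Cd163 were lower and Tgm2 was higher in every RvD1 library than in every untreated one. Groups were apart in 25.4% of all tested genes, 12.6% higher and 12.8% lower, so 3 of 10 was near the background. The fold changes were positive in 5 of the 10 and negative in 5, with a median log2 fold change of -0.02, against 0.00 over all tested genes (50.8% positive). In bulk RNA, fewer cells of a type and less RNA per cell cannot be told apart.

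Levels set these genes far apart from each other. Values were log2 normalized reads, and to compare genes they were divided by the length of the longest transcript, which gives log2 normalized reads per kb. On that scale Tgm2 stood highest at 11.07 ± 0.13 (SD over the 6 libraries), followed by Stab1 at 10.67 ± 0.13 and by Msr1 at 9.97 ± 0.07. Chil3 averaged 9.95 ± 0.64, and it was below Msr1 in 4 of the 6 libraries, so that pair had no fixed order. Mrc1 (9.16 ± 0.16) and Il4ra (9.06 ± 0.12) were close neighbours, with Mrc1 the higher in 5 of the 6 libraries by a mean of 0.10 ± 0.15. A gap of 4.31 separated Il4ra from the next gene, Clec10a (4.75 ± 0.35). Cd163 (3.17 ± 0.35) and Mgl2 (3.10 ± 0.54) followed with no order between them, and Retnla was last at 1.20 ± 0.99. Retnla was above 0 in only 3 of the 6 libraries, and division by its length turns a value of 0 into 0.739. Its mean is therefore mostly the floor and not a measured level. The cultures therefore held abundant transcripts for 6 of the genes, while Clec10a, Cd163 and Mgl2 rested on an estimated 8.65 to 90.1 reads per library and Retnla on at most 3.98.

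**Figure D1:**
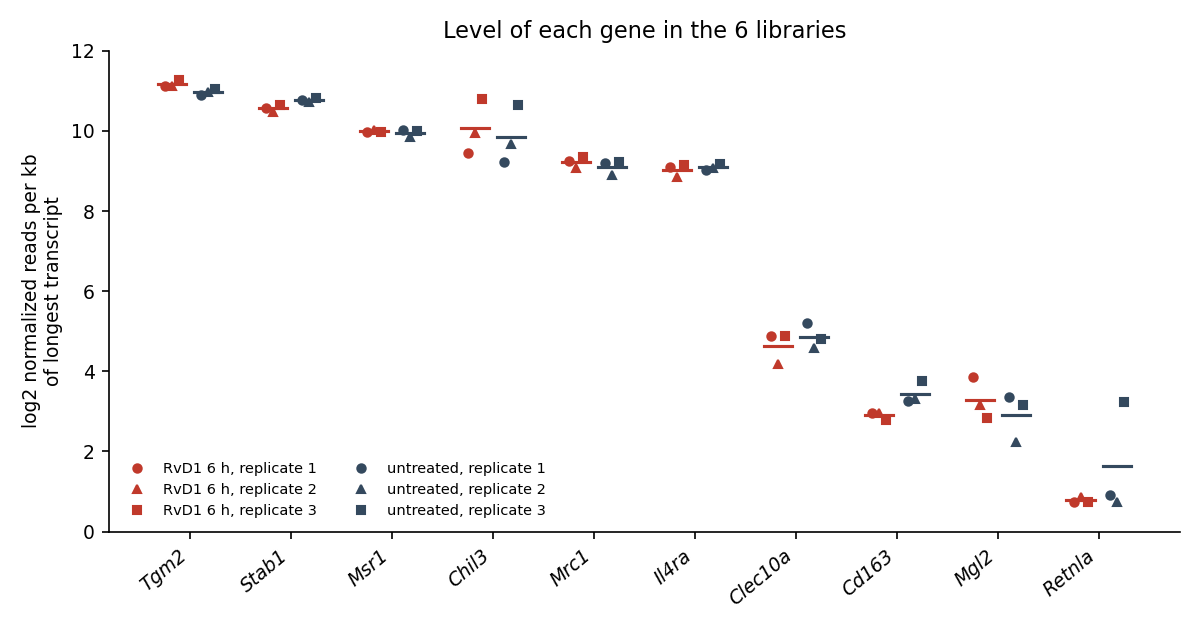
Level of each of the 10 genes in each library, in log2 normalized reads per kb of the longest transcript (vertical axis), with RvD1 libraries in red and untreated libraries in dark blue; symbols mark the replicate number and bars the group means. 6 genes lie at 8.84 or above in every library and 4 lie far below, and Chil3 is the abundant gene whose libraries spread most.

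Stab1 encodes stabilin-1, a scavenger receptor that clears altered lipoproteins, the matrix protein SPARC and dying cells (chromosome 14, 31139013 to 31168641, minus strand, mm10, protein-coding). It had 13.58, 13.47 and 13.64 log2 normalized reads in RvD1 replicates 1, 2 and 3, against 13.78, 13.72 and 13.82 in untreated replicates 1, 2 and 3. Every RvD1 library was below every untreated one. The level with RvD1 was 0.862 of the untreated level (95% interval 0.777 to 0.957, from 3 libraries per group; adjusted p = 0.128 in limma). Stab1 had the smallest p of the 10 genes and did not pass. When length and GC content of transcripts were corrected for, its log2 fold change was -0.168 in place of -0.214 (limma adjusted p = 0.325). A stretch of 112 bases, 1.09% of the annotated exon bases of Stab1, is also covered by exons of Nt5dc2 on the other strand. The labels do not describe strand-specific libraries, so reads in that stretch cannot be assigned to either gene. Nt5dc2 itself, looked up for this reason, had a log2 fold change of -0.23 (limma adjusted p = 0.149).

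Cd163 encodes the receptor that takes up complexes of haemoglobin and haptoglobin (chromosome 6, 124304656 to 124330527, plus strand, protein-coding). Its values were 5.11, 5.10 and 4.93 log2 normalized reads in RvD1 replicates 1, 2 and 3, and 5.41, 5.46 and 5.91 in untreated replicates 1, 2 and 3. The groups did not overlap, and untreated replicate 3 was the highest library. The level with RvD1 was 0.687 of the untreated level (0.511 to 0.923; limma adjusted p = 0.163), the lowest ratio of the 10 genes apart from Retnla, for which no ratio was formed. It rested on few reads, an estimated 30.3 to 49.7 per library. After the length and GC correction the log2 fold change of Cd163 was -0.609 in place of -0.541 (limma adjusted p = 0.252).

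Msr1 encodes scavenger receptor A, which binds oxidised lipoproteins and bacterial surface molecules (chromosome 8, 39581685 to 39642673, minus strand, protein-coding). It measured 11.84, 11.89 and 11.83 log2 normalized reads with RvD1 and 11.89, 11.70 and 11.86 without it, in replicates 1, 2 and 3 of each group. The groups overlapped, and the ratio of 1.02 had a narrow interval of 0.927 to 1.13 (limma adjusted p = 0.812). Corrected for the length and GC content of transcripts, its log2 fold change was -0.145 in place of 0.03, still without passing (limma adjusted p = 0.339).

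Mrc1, the macrophage mannose receptor CD206, is the surface marker most often used for alternative activation (chromosome 2, 14229392 to 14332057, plus strand, protein-coding). Its values were 11.67, 11.50 and 11.77 log2 normalized reads in RvD1 replicates 1, 2 and 3, against 11.62, 11.32 and 11.65 in untreated replicates 1, 2 and 3. In both groups the library numbered 2 was the lowest, and the groups overlapped. The ratio was 1.08 with an interval of 0.924 to 1.27 (limma adjusted p = 0.572), and its direction turned after the length and GC correction (log2 fold change -0.036, SE 0.109). Without untreated replicate 2 the log2 fold change was 0.01 in place of 0.115. The interval as deposited holds no change beyond 1.27-fold in either direction.

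Clec10a and Mgl2 are neighbouring paralogs on chromosome 11 that encode the galactose-type lectins MGL1 and MGL2. Clec10a had 6.11, 5.40 and 6.09 log2 normalized reads in RvD1 replicates 1, 2 and 3, and 6.42, 5.81 and 6.03 in untreated replicates 1, 2 and 3. As with Mrc1, the library numbered 2 was the lowest of each group, and the groups overlapped (ratio 0.857, 0.591 to 1.24; limma adjusted p = 0.649). Mgl2 had 4.56, 3.86 and 3.53 with RvD1, against 4.06, 2.94 and 3.88 without it, in the same order of replicates. The ratio of 1.28 had an interval from 0.704 to 2.34 (limma adjusted p = 0.647), which leaves room for a change of moderate size in either direction. Its log2 fold change of 0.36 was 0.02 without untreated replicate 2 and 0.07 without RvD1 replicate 1. In the reference transcripts, 10.6% of the 50-base fragments of Clec10a and 16.5% of those of Mgl2 also occur in another gene, 242 of them in both lectins. How the authors counted reads that fit more than 1 gene is not given in the sources used here, so the split between the paralogs is uncertain.

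**Figure D2:**
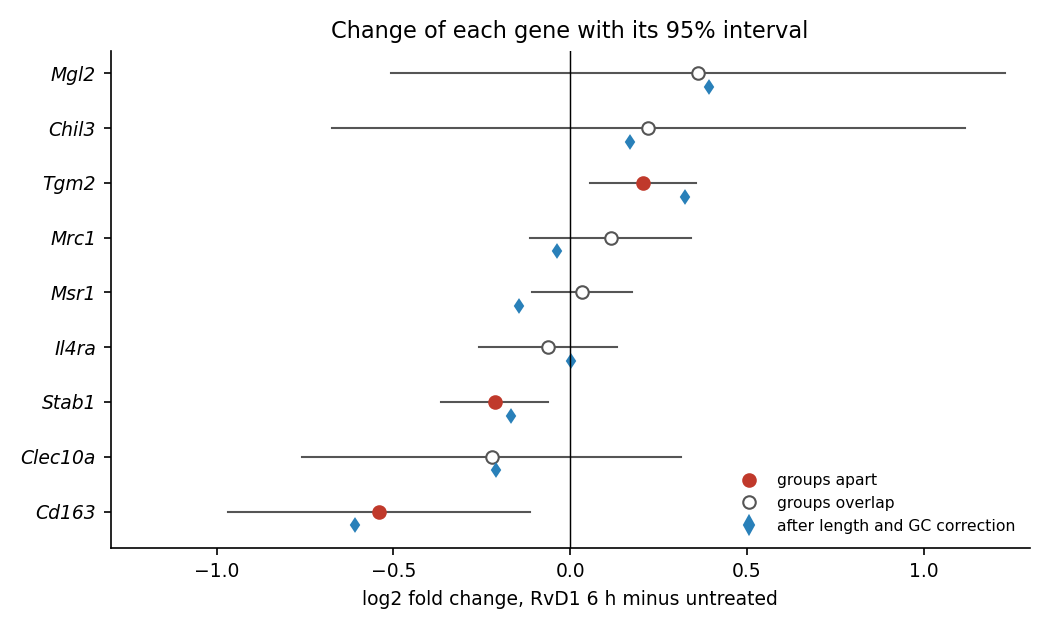
Log2 fold change of 9 of the genes, RvD1 minus untreated (horizontal axis), with 95% intervals from the limma fit (lines; n = 3 per group); filled circles mark genes whose groups do not overlap and blue diamonds the value after the length and GC correction. The intervals of Stab1, Cd163 and Tgm2 leave out 0 and the other 6 include it; Retnla, near the floor in most libraries, is not drawn.

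The secreted markers of alternative activation, Retnla and Chil3, had the largest SDs within groups of the 10 genes (0.98 and 0.70). Among genes whose mean lay within 1 log2 unit, Chil3 stood above 99.8%. Retnla stood above 86.5% of such genes, a lower place than that of Mrc1 (90.6%). Retnla encodes RELMα, or FIZZ1 (chromosome 16, 48842551 to 48844461, plus strand, protein-coding). It was listed at 0, 0.12 and 0 in RvD1 replicates 1, 2 and 3, and at 0.17, 0 and 2.49 in untreated replicates 1, 2 and 3, where 0 stands for 1 normalized read or fewer. Only untreated replicate 3 stood clear of the floor, with an estimated 3.98 reads, and no fold is given (adjusted p = 0.542 in limma). Retnla passed the filter, above 0 in at least 3 libraries, through values of 0.12 and 0.17 beside that library.

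Chil3 encodes the chitinase-like lectin Ym1, made by alternatively activated macrophages and by maturing neutrophils (chromosome 3, 106147554 to 106167564, minus strand, protein-coding). It had 10.08, 10.56 and 11.42 log2 normalized reads in RvD1 replicates 1, 2 and 3, against 9.84, 10.30 and 11.26 in untreated replicates 1, 2 and 3. The library numbered 3 was the highest in each group and the library numbered 1 the lowest, and the groups overlapped. The ratio was 1.17, with an interval from 0.626 to 2.17 (limma adjusted p = 0.802). The spread within the groups was wide: the SD was 0.70, against a median of 0.08 for genes whose mean lay within 1 log2 unit of it, which put Chil3 above 99.8% of them. No other of the 10 genes stood above 90.6% of the genes of like level, which was the place of Mrc1 (SD 0.16, median 0.08). The direction of Chil3 turned when some single libraries were left out, with log2 fold changes of -0.14 without RvD1 replicate 3 and -0.09 without untreated replicate 1, in place of 0.22. Between libraries of the same number, Chil3 was higher with RvD1 in all 3 comparisons (by 0.241, 0.265 and 0.158). The numbers are not known to pair the cultures.

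Of 5 tested resistin and chitinase-like relatives, 3 (Chil4, Chil1 and Retnlg) had the same order of libraries as Chil3 in both groups, an order seen in 6.22% of all tested genes. Chil4, its neighbour and closest paralog, had 7.17, 7.70 and 8.40 log2 normalized reads in RvD1 replicates 1, 2 and 3, and 6.80, 7.31 and 8.37 in untreated replicates 1, 2 and 3. The relative Chil1 had 5.19, 5.70 and 7.12 with RvD1 and 5.24, 5.55 and 6.88 without it. Chid1, a chitinase-domain protein, did not share the order, with 8.83, 8.64 and 8.69 in RvD1 replicates 1, 2 and 3 and 8.73, 8.75 and 8.68 in untreated replicates 1, 2 and 3. The weakly expressed Chi3l7 did not either, being at 0 in both untreated replicates 1 and 2, but it was highest in the library numbered 3 of each group. Of a list of 10 neutrophil markers, 7 lay in the order of Chil3 in both groups, Retnlg again among them, while Mpo, Elane and Ly6g did not. The 2 described next were chosen after their values were seen. Ngp, a neutrophil granule protein, had 10.47, 10.93 and 11.94 with RvD1 and 10.29, 10.91 and 12.08 without it, and Ltf, lactoferrin, had 10.23, 10.59 and 11.64 with RvD1 and 9.74, 10.39 and 11.50 without it. The myeloperoxidase gene Mpo, which did not share the order, had 4.64, 3.82 and 5.85 with RvD1 and 4.19, 4.03 and 5.17 without it. All 10 genes of the list were above 0 in all 6 libraries. Their summed level was 12.41, 12.91 and 13.81 (log2) in RvD1 replicates 1, 2 and 3 and 12.04, 12.70 and 13.85 in untreated replicates 1, 2 and 3. Of 8 macrophage markers, 6 also lay in that order, with smaller steps in their sum: 16.50, 16.64 and 16.86 with RvD1 and 16.46, 16.57 and 16.84 without it. The part of either cell type in the Chil3 values was not tested.

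**Figure D3:**
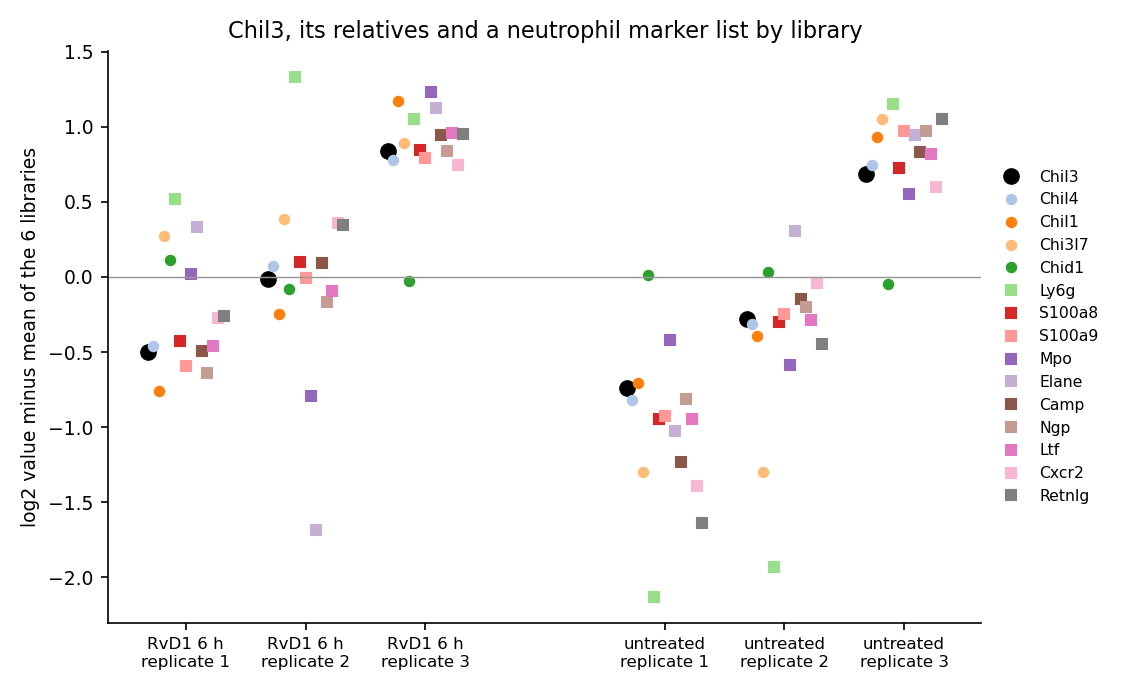
Log2 value of each gene in each library minus its mean over the 6 libraries (vertical axis), for Chil3 (large black circles), its relatives Chil4, Chil1, Chi3l7 and Chid1 (circles), and the 10 genes of the neutrophil list, Retnlg among them (squares). Chil3, Chil4, Chil1 and 7 of the 10 neutrophil genes are highest in the library numbered 3 and lowest in the library numbered 1 of each group, and Mpo, Elane, Ly6g, Chi3l7 and Chid1 are not.

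For the paralogs Chil3 and Chil4, the 250 bases before their start sites are printed, together with those of Retnla, the textbook STAT6 target among the 10 genes. Whether these bases bear on the pattern that Chil3 and Chil4 shared over the libraries was not tested. The sequences are RefSeq's on build GRCm38.p6, from a table that held promoters for 7 of the 10, and each runs 5′ to 3′ on the strand of the gene. Capitals mark palindromic motifs of the kind STAT proteins bind, TTCNNNNGAA (the spacing that STAT6 prefers) and TTCNNNGAA, which read the same on both strands.
Retnla: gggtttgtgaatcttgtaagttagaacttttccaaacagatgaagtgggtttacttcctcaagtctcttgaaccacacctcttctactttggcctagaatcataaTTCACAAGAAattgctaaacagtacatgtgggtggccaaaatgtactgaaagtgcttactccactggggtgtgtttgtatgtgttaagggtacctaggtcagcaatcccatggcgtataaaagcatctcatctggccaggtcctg
Chil3: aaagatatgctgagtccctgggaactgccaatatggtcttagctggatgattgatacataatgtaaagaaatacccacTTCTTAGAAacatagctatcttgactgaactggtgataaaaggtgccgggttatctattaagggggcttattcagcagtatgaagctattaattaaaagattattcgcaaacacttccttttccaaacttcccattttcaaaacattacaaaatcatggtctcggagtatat
Chil4: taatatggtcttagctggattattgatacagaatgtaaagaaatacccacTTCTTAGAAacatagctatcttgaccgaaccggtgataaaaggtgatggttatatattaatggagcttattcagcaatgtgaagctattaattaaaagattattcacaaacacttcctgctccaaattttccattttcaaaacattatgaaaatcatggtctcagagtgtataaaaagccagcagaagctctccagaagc
The windows lie at chr16:48842359-48842608 for Retnla (plus strand), chr3:106167565-106167814 for Chil3 and chr3:106219480-106219729 for Chil4 (both minus strand). Chil3 and Chil4 were identical at 201 of 221 aligned bases (91.0%) of these windows, and both carry TTCTTAGAA. The Retnla window holds TTCACAAGAA, 145 to 136 bases before the start RefSeq gives (48842609), which lies downstream of the GENCODE start printed above. TTCNNNNGAA was found in 5.85% and TTCNNNGAA in 7.02% of 32851 promoter windows of that length, and neither was found in those of Mrc1, Cd163, Stab1, Mgl2 and Il4ra. The likeness of the paralogs extends to their transcripts: 29.4% of the 50-base fragments of Chil3 also occur in another gene, and 275 of its 1490 fragments occur in Chil4, so their separate levels are uncertain.

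Tgm2 encodes transglutaminase 2, which crosslinks proteins and helps macrophages engulf dying cells, and is a marker of alternative activation shared by mouse and human (chromosome 2, 158116402 to 158146436, minus strand, protein-coding). It had 12.96, 12.97 and 13.11 log2 normalized reads in RvD1 replicates 1, 2 and 3, against 12.74, 12.81 and 12.89 in untreated replicates 1, 2 and 3. Every RvD1 library was above every untreated one. Tgm2 was also the only other of the 10 genes with the library order of Chil3 in both groups. The ratio was 1.15, with an interval of 1.04 to 1.28 (limma adjusted p = 0.142). The length and GC correction raised its log2 fold change to 0.33 (SE 0.06), in place of 0.21 (SE 0.07), still without passing (limma adjusted p = 0.0930). Exons of Rprd1b on the other strand cover 370 of its exon bases (8.03%); Rprd1b, looked up for this reason, had a log2 fold change of 0.02 (limma adjusted p = 0.890). The gene model Gm20412 covers 633 of them (13.7%) and was listed at 0 in all 6 libraries.

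Il4ra encodes IL-4Rα, the chain through which both IL-4 and IL-13 signal (chromosome 7, 125552120 to 125579474, plus strand, protein-coding). Its values were 11.48, 11.23 and 11.55 log2 normalized reads in RvD1 replicates 1, 2 and 3, and 11.42, 11.46 and 11.57 in untreated replicates 1, 2 and 3. RvD1 replicate 2 was the lowest library, and the groups overlapped. The ratio was 0.957, with an interval of 0.836 to 1.10 (limma adjusted p = 0.732). Without RvD1 replicate 2 the log2 fold change was 0.03 in place of -0.06, and after the length and GC correction it was 0.001 (SE 0.069). The gene model Gm44876, not analysed here, covers 571 exon bases of Il4ra (9.51%).

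Of 19 tested genes that act with the IL-4 receptor, 0 passed in limma over all genes. An unadjusted p under 0.05 was found for 4 of the 19, all of them higher, and for 19.9% of all tested genes. Il13ra1, the partner chain that completes the receptor for both cytokines in macrophages, had the smallest p of the list. It measured 8.08, 7.94 and 7.97 log2 normalized reads in RvD1 replicates 1, 2 and 3, against 7.56, 7.68 and 7.71 in untreated replicates 1, 2 and 3, which is 0.34 higher on the log2 scale (SE 0.08; adjusted p = 0.0813 in limma), and 0.20 higher after the length and GC correction (SE 0.09; limma adjusted p = 0.437). Its groups did not overlap, as in 25.4% of all tested genes. Stat6 itself had a log2 fold change of 0.10 (limma adjusted p = 0.428), and the list as a whole had a median of 0.05.

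Among 19 tested targets and regulators of alternative activation outside the 10 genes, 0 passed in limma. The unadjusted p was under 0.05 for 5 of the 19, of which 4 were higher, and for 19.9% of all tested genes. Klf4, a transcription factor that works with STAT6, had the smallest p, with 8.29, 8.23 and 8.25 log2 normalized reads with RvD1 and 7.93, 8.00 and 7.90 without it (difference 0.31, SE 0.07; adjusted p = 0.0744 in limma). Ppargc1b, a coactivator of oxidative metabolism and the 1 gene on the lower side, was picked out after its value was seen and had a log2 fold change of -0.74 (limma adjusted p = 0.145). The arginase Arg1 stood at 7.61, 7.52 and 7.90 with RvD1 and 7.67, 7.04 and 7.23 without it (limma adjusted p = 0.279). The list had a median log2 fold change of 0.10.

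The list of other scavenger receptors, which takes in lipoprotein receptors such as Lrp8, gave the 1 call among these lists. That is 1 of 19 tested genes, where 1.12% of all tested genes were called. Lrp8, a lipoprotein and reelin receptor, fell to 8.13, 8.41 and 8.19 log2 normalized reads in RvD1 replicates 1, 2 and 3, against 8.90, 9.02 and 8.81 in untreated replicates 1, 2 and 3 (difference -0.66, SE 0.09; adjusted p = 0.0331 in limma). The call ended when RvD1 replicate 2 or 3 or any single untreated library was left out (limma adjusted p between 0.0927 and 0.131), without a filter on low values (0.0553) and without the variance trend (0.178), while the log2 fold change stayed between -0.75 and -0.61. The other 18 of the 19 tested genes of that list did not pass, among them Cd36, the most studied receptor for oxidised lipoproteins (log2 fold change 0.06, limma adjusted p = 0.854). Of 16 tested C-type lectins and mannose receptor relatives, 0 passed in limma. The unadjusted p was under 0.05 for 3 of these 16, all of them higher, beside 19.9% of all tested genes. Their smallest p belonged to Clec4a3, an immune lectin receptor (difference 0.47 on the log2 scale, SE 0.13; adjusted p = 0.101 in limma), which passed without RvD1 replicate 1 (0.62, SE 0.09, limma adjusted p = 0.0352).

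Of 10 resistin and chitinase-like relatives, 5 were at 0 in all 6 libraries and 0 of the 5 tested passed in limma. An unadjusted p under 0.05 was found for 0 of these 5, beside 19.9% of all tested genes. Of 8 transglutaminases and relatives other than Tgm2, 5 were at 0 in all libraries and 0 of the 3 tested passed in limma (1 lower at an unadjusted p under 0.05), with a median log2 fold change of -0.145. Genes of classical activation, the contrasting inflammatory state, also had 0 of 15 past the test. Their unadjusted p was under 0.05 for 1 higher and 1 lower gene, beside the same 19.9% of all tested genes. The median log2 fold change of the 15 was 0.17. The smallest p of that list belonged to Irf5, a transcription factor of inflammatory macrophages (-0.25, SE 0.08, limma adjusted p = 0.142; -0.12, SE 0.07 and 0.539 after the length and GC correction).

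**Figure D4:**
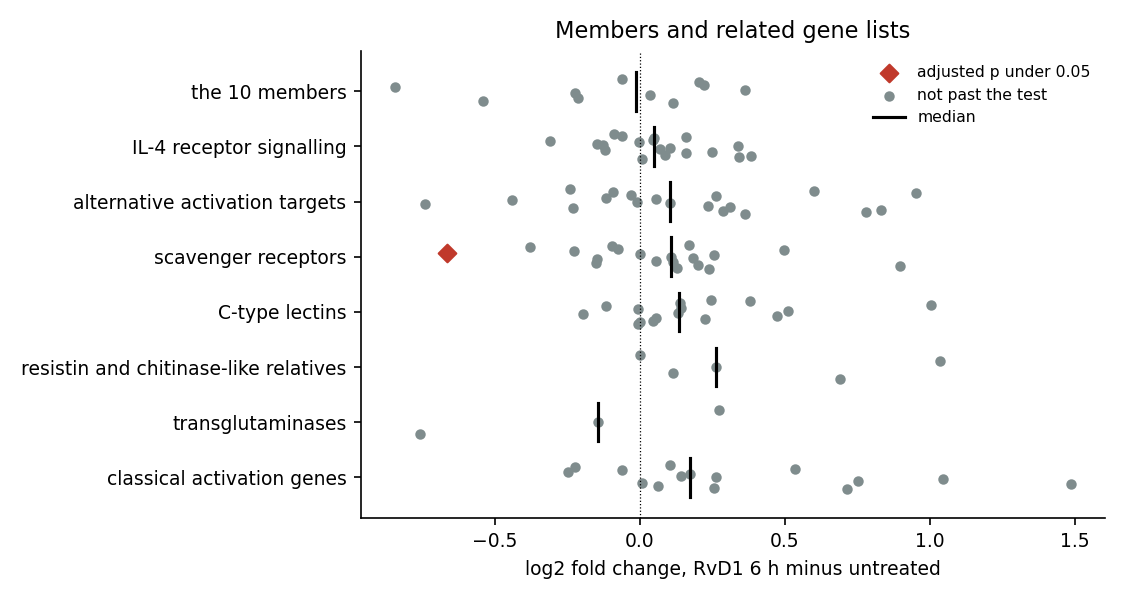
Log2 fold change of each tested gene, RvD1 minus untreated (horizontal axis), for the 10 genes and 7 related lists with the 10 genes left out; vertical bars are medians. Only Lrp8, the red diamond in the scavenger receptor list at -0.66, passed the test over all genes, and the medians lie between -0.145 for the 3 transglutaminases and 0.26 for the 5 resistin and chitinase-like relatives.

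The genes whose values followed Stab1 most closely were sought among 13168 others whose mean log2 value was 5 or more, since Stab1 had both the smallest p and the highest log2 value of the 10. Over the 6 libraries Pearson's r was 0.999 for the gene model Gm16580, 0.997 for the zinc finger gene Zfp219 and 0.996 for the deacetylase Hdac6. With 6 points and so many candidates, values of that size describe these libraries alone, which share the split into groups.

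The estimated depth was 11.2 to 16.3 M reads in RvD1 libraries and 9.05 to 14.3 M in untreated libraries. All 8 macrophage markers were above 0 in all 6 libraries, with the sums given above. The summed level of stromal cell markers was also high. Of 8, 7 were above 0 in every library, with sums of 15.29 to 15.93 in RvD1 libraries and 15.40 to 15.65 in untreated libraries. The collagen gene Col1a1 alone stood at 14.39, 13.83 and 14.06 with RvD1 and 14.30, 14.10 and 14.22 without it. Genes of the stromal list differed widely in their means over the 6 libraries. These means were 14.15 for Col1a1, 14.11 for Col1a2, 12.47 for Col3a1, 11.75 for Cxcl12 and 11.14 for Pdgfrb. They were 8.96 for Pdgfra, 5.24 for Dcn and 0.54 for Lum, which was at 0 in RvD1 replicate 2 and untreated replicates 2 and 3. Tgm2 is also made by fibroblasts, and the part of stromal cells in its values was not tested. Markers of dendritic cells summed to 6.09 to 6.28 with RvD1 and 5.89 to 6.24 without it, and those of mast cells and basophils to 6.52 to 7.42 with RvD1 and 6.16 to 7.02 without it. Sums were 3.64 to 4.57 with RvD1 and 3.41 to 5.22 without it for eosinophil markers (Prg3 and Il5ra at 0 throughout), and 2.34 to 3.40 with RvD1 and 2.08 to 3.09 without it for T and NK cell markers (Cd3e and Cd3g at 0).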

How the data were processed

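The authors deposited a single table of 38087 genes, 1 column for each library, and its headers say only that the values are normalized. The deposited values were taken as log2 normalized reads: they ran from 0 to 17.4, and their antilogs added up to 12.4 to 12.8 M per library. Between 49.6% and 51.6% of values were 0. TopHat2 2.0.7 and mm10 are named in the submitters' processing notes, but neither the read counter nor the normalization method is. Depth was estimated from the spacing of low values; only 41.0% to 55.0% of those lay within 0.02 of a whole read and 7.78% to 10.7% lay midway between whole reads, by the same tolerance, so no count test was run.

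Differences were tested with limma 3.58.1 in R 4.3.3 (trend, treatment alone, two-sided, Benjamini-Hochberg threshold 0.05) on 18899 genes, those above 0 in 3 or more libraries, with all 6 libraries in the fit, which also gave standard errors and 95% intervals. Lengths, GC content, coordinates and shared 50-base fragments came from GENCODE M21, which held 95.3% of the identifiers. The correction for length and GC content subtracted natural splines with 4 degrees of freedom, fitted per library. The 10 genes and the lists were chosen with earlier results of these data known. Named from each list were genes past the test, or else the 1 with the smallest p; the few named otherwise are marked. Sequences were aligned with Biopython 1.88 and figures drawn with matplotlib 3.10.9 in Python 3.11.15.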

Additional observations from a re-analysis of the deposited data

How the results depend on the processing

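The count of 0 called among the 10 genes held under every setting tried except those with the replicate number as a block. The numbers are not known to pair the cultures: deviations from the group means correlated at 0.301, -0.08 and 0.417 for numbers 1, 2 and 3 over 13176 genes, and the libraries numbered 2 did not correlate best with each other. With the replicate block, 2 of the 10 were higher (Tgm2, adjusted p = 0.0147, and Chil3, 0.0246) and 1 lower (Stab1, 0.0122), where limma called 10% of all tested genes (1049 higher and 847 lower). When the replicate block was joined to the length and GC correction, 2 were higher (Tgm2 and Chil3) and 2 lower (Stab1, and Msr1 at -0.145 with limma adjusted p = 0.0461). That fit called 769 of 18549 tested genes, 363 higher and 406 lower. Of the genes named from related lists, the block also put past the test Klf4 (limma adjusted p = 0.0370), Clec4a3 (0.0350), Il13ra1 (0.0464) and Irf5 (0.0253). Joined to the correction, the block kept Klf4 alone of these 4 (0.0206). All 4 had been named for the smallest p of their lists in the main fit of these same libraries. The unnamed genes of the lists are not given under the block. The count over all genes, 106 higher and 105 lower, was 5 and 7 without a filter, 218 and 246 among genes whose mean log2 value was 5 or more, 1 and 0 without the variance trend, 263 and 303 with sample weights, and 18 and 18 after the length and GC correction. Leaving out 1 library gave 0 to 239 higher and 0 to 212 lower genes; the limma fits with 0 calls, without RvD1 replicate 2 or 3 or untreated replicate 3, had 2623, 3203 and 3045 genes with an unadjusted p under 0.05. Directions turned for Mrc1 (-0.036), Msr1 (-0.145) and Il4ra (0.001) after the length and GC correction, with or without the block. With 1 library left out, the log2 fold change ran from -0.024 to 0.072 for Msr1 (negative without untreated replicate 2), from 0.01 to 0.187 for Mrc1, from 0.018 to 0.587 for Mgl2, from -0.362 to 0.012 for Clec10a and from -0.127 to 0.03 for Il4ra (both positive without RvD1 replicate 2), and from -0.144 to 0.618 for Chil3 (negative without RvD1 replicate 3 or untreated replicate 1, -0.093). Stab1 stayed between -0.25 and -0.17, Cd163 between -0.63 and -0.38 and Tgm2 between 0.16 and 0.24. The causes were not tested. Few reads limit Clec10a, Cd163, Mgl2 and Retnla.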
